A study of Rattus norvegicus with 6 samples.

Results

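The metabotropic glutamate receptors and the Homer scaffold proteins that tether them were examined in the hippocampus of male Wistar rats. The members were 9 genes, Grm2, Grm3, Grm4, Grm5, Grm7, Grm8, Homer1, Homer2 and Homer3, chosen by name. Every non-control probe whose RefSeq accession belongs to one of them was taken, which gave 10 of the 30367 probes on the array, or 9 of 15154 genes that could be named. By this match Grm4 had 2 probes and each other gene had 1. The match gave no gene name to 12363 of the 30367 probes, so further probes of these genes may have been missed. The Homer1 probe was printed in 10 spots and the others in 1 spot each.

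Both groups were male rats operated on at 2 months of age and sampled 2 weeks later, housed with 12 h of light and 12 h of dark. The orchidectomized group, which had lost the testes and with them the main source of androgen, and the sham-operated group, which kept them, held 3 biological replicates each, on 1 array each. No allele, transgene or hormone replacement is named for either group. Circulating hormone levels were not analysed here. Levels are given in log2 units above or below the array's own 75th percentile, and a positive difference means a higher level after orchidectomy.

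Metabotropic glutamate receptors are G protein-coupled receptors that tune synapses more slowly than the glutamate-gated channels do. Group I receptors, among them the Grm5 product mGluR5, sit at the edge of the postsynaptic density and act through Gq and phospholipase C to release calcium from internal stores. Group II receptors (Grm2, Grm3) and group III receptors (Grm4, Grm7, Grm8) act through Gi/o, lower cyclic AMP and mostly restrain transmitter release. Homer proteins bind the tail of group I receptors and link it to inositol trisphosphate receptors and Shank scaffolds. A short Homer1 isoform that lacks the coiled coil, Homer1a, is made on neuronal activity and breaks these links.

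The array labelled sham 2 stood apart before any comparison was made. Across probes its correlation with the other arrays was 0.876 to 0.88, whereas pairs of the other 5 arrays reached 0.983 to 0.993. Between 23785 and 26173 probes per array were well above background. Defining markers of hippocampal glutamatergic neurons were present on the other 5 arrays, where 11 of 11 were well above background. On the array labelled sham 2 all 11 lay below those 5 arrays, with a list mean of -5.96 against -0.25 to 0.12. Slc17a7, whose product loads glutamate into vesicles, was among 3 of the 11 not well above background there. Choroid plexus markers had a list mean of 4.42 on it against -4.78 to -3.33. These marker levels go against the hippocampus label of that array, so every 6-array value has a sham group that includes an array of another marker profile. The members' group differences are therefore given with and without it.

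No member differed between the groups past the adjusted threshold. At an adjusted p under 0.05 by the Benjamini-Hochberg method, limma called 0 of 10 member probes over 6 arrays (adjusted p 0.775 to 0.806), where the share of all 24630 tested probes called was 0%. At an unadjusted p under 0.05 the share of all probes was 0.731% and 0 member probes were among them. Without the array labelled sham 2, 0 of 10 were called (limma adjusted p 0.988 to 0.997), again beside 0% of all 25208 tested probes. The share at an unadjusted p under 0.05 was 2.71% there, with 0 member probes. All 10 probes were well above background on the 3 orchidectomized arrays and on sham 1 and sham 3. In the 6-array comparison the probes of Grm3, Grm5, Grm7 and Grm8 passed the filter on dim probes only through the orchidectomized group, since they were not well above background on the array labelled sham 2.

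The sign of the differences turned with the array labelled sham 2. Over 6 arrays the median difference across the 9 genes came to 0.83 and 9 of 9 were positive, while the median of all tested genes was -0.033 and 47% of them were positive. These values describe the list and support no difference, since 4 of the 9 genes passed the filter only through the orchidectomized group. The median was 0.55 over the 5 genes left by a filter that asks for all arrays of both groups. Without that array the median over the 9 genes was -0.010, with 4 positive and 5 negative, beside -0.028 and 43.5% for all genes. By probe, 10 of 10 were positive over 6 arrays beside 48.4% of all tested probes, and 4 of 10 without that array beside 44.9%. Grm4 entered the medians over genes by its brighter probe, which had 0.74 over 6 arrays, below the median of 0.83. Its other probe had 1.95, above that median. The median absolute difference was 0.828 for the 9 genes and 0.325 for all genes over 6 arrays, and 0.122 and 0.123 without the array labelled sham 2.

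**Figure D1:**
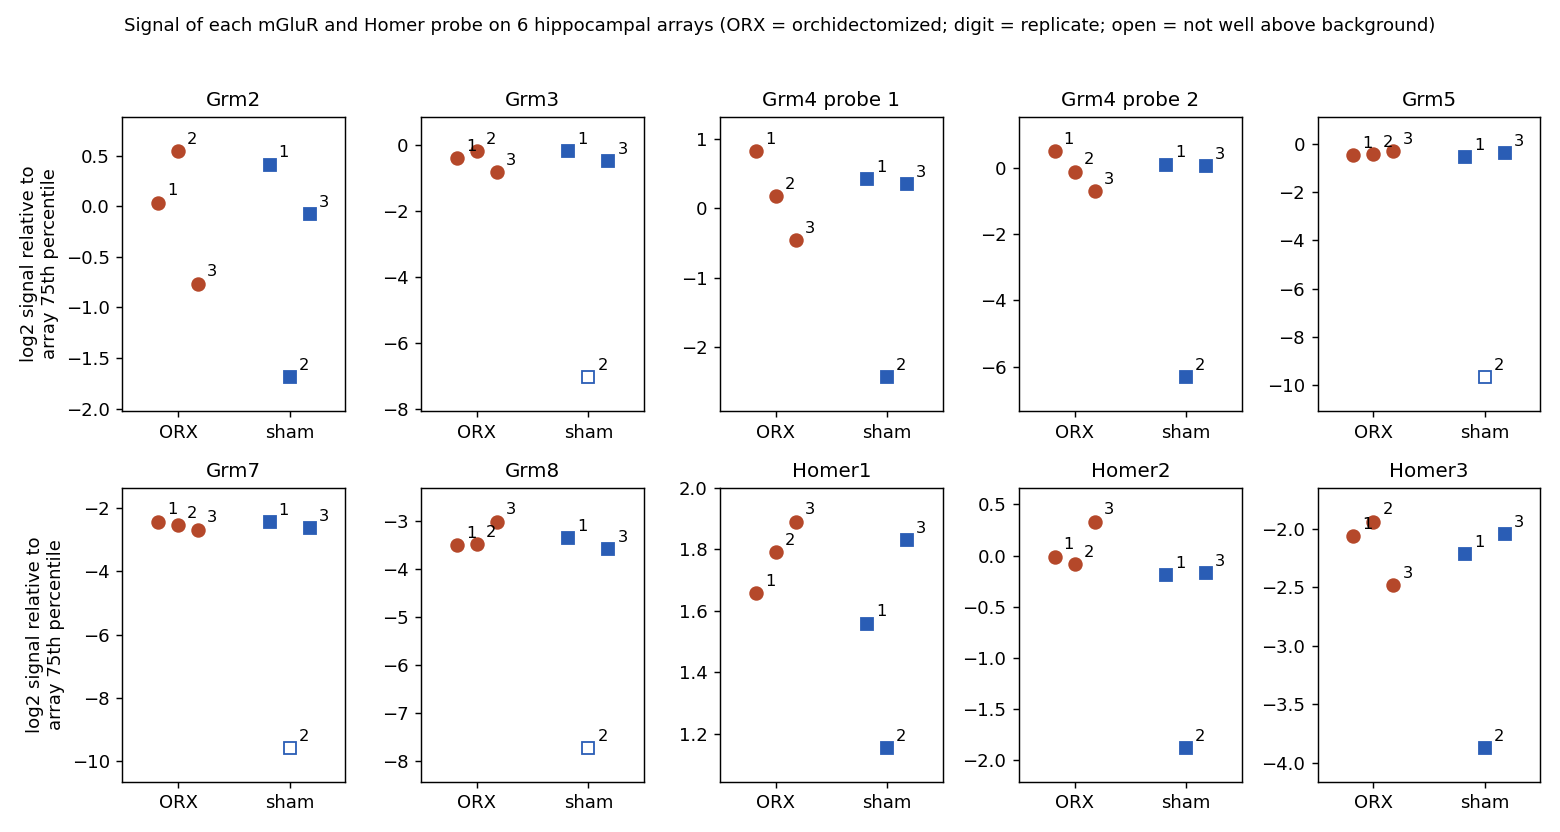
Log2 signal relative to the array's 75th percentile (y axis, a separate range per panel) of each mGluR and Homer probe on 3 orchidectomized (ORX, circles) and 3 sham arrays (squares), with the replicate number beside each point and open symbols for values not well above background. Sham 2 is the lowest array at all 10 probes, and the other 5 arrays lie close together at Grm5 and Grm7 and farther apart at Grm2 and Grm4.

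Grm5, the group I receptor gene of the set, read -0.48, -0.44 and -0.29 on orchidectomized 1 to 3. It read -0.56 on sham 1, -9.65 on the array labelled sham 2 and -0.38 on sham 3. Apart from the array labelled sham 2 these values lay within 0.27 log2 units and the groups overlapped. The orchidectomized mean was -0.41 ± 0.10 (SD, n = 3), and sham 1 and sham 3 averaged -0.47 ± 0.13 (SD, n = 2). These means were 0.07 apart (SE 0.14) with a 95% interval of -0.27 to 0.41, or 0.827- to 1.33-fold (limma adjusted p 0.988). The difference was 0.27 on the slide that orchidectomized 3 shared with sham 1, and 0.16 against sham 1 on the first scan day. With all 6 arrays the difference was 3.13 (SE 2.59), and it was not called (limma adjusted p 0.775). Leaving out the array labelled sham 2 brings 3.13 to 0.07.

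Homer1 encodes the scaffold that holds mGluR5 near its calcium stores. Its probe is assigned to NM_031707, and whether it reads the long or the short Homer1a form is not given in the sources used here. The probe read 1.66, 1.79 and 1.89 on orchidectomized 1 to 3, and 1.56, 1.15 and 1.83 on sham 1 to 3, with the array labelled sham 2 lowest. The 10 spots of an array varied with an SD of 0.023 to 0.047, and the 5 arrays other than the one labelled sham 2 with an SD of 0.14. The groups overlapped. Means were 1.78 ± 0.12 (SD, n = 3) and, without the array labelled sham 2, 1.69 ± 0.19 (SD, n = 2), which lay 0.08 apart (SE 0.15) with a 95% interval of -0.29 to 0.46, or 0.816- to 1.38-fold (limma adjusted p 0.988). The difference was 0.33 within the shared slide, 0.22 within scan day 1 and 0.26 over 6 arrays (limma adjusted p 0.775).

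Homer2, a constitutive long Homer with a coiled coil, was the only member whose groups did not overlap. It read -0.01, -0.08 and 0.33 on orchidectomized 1 to 3 and -0.19, -1.88 and -0.17 on sham 1 to 3. Each orchidectomized array lay above each sham array. Such a lack of overlap, seen at 1 of 10 member probes in both comparisons, was found at 8.00% of all tested probes over 6 arrays (3.26% with orchidectomized higher). It was found at 16.3% without the array labelled sham 2 (6.24% with orchidectomized higher), so that the members' share is near the background. Without that array the difference was 0.26 (SE 0.17) with a 95% interval of -0.16 to 0.68, and it was not called (limma adjusted p 0.988). A larger absolute difference was found at 21.9% of tested probes. The difference was 0.52 within the shared slide, 0.27 within scan day 1, 0.13 without orchidectomized 3 and 0.83 over 6 arrays (limma adjusted p 0.775).

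Homer3, the remaining constitutive scaffold, read -2.06, -1.94 and -2.48 on orchidectomized 1 to 3. The sham arrays had -2.22, -3.87 and -2.05, again lowest on the array labelled sham 2. The groups overlapped, and without that array the difference was -0.03 (SE 0.20) with a 95% interval of -0.52 to 0.46 (limma adjusted p 0.991). Values of -0.26 on the shared slide and 0.06 on the first scan day differed in sign. Over 6 arrays the difference was 0.55 (limma adjusted p 0.775).

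**Figure D2:**
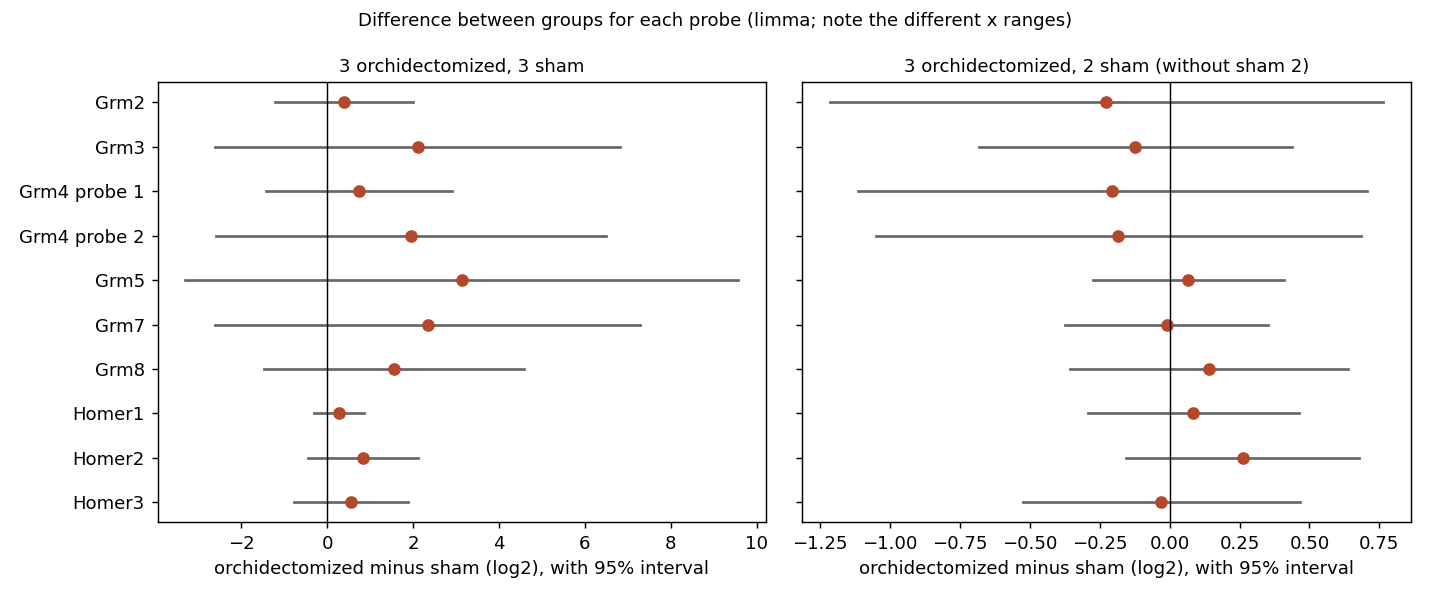
Orchidectomized minus sham difference in log2 units (x axis, points) with the 95% interval of limma (lines) for each probe (y axis), over 3 orchidectomized and 3 sham arrays on the left and without sham 2 on the right, with a different x range in each panel. All 10 intervals include 0 in both panels, and those on the right run no farther than -1.21 and 0.763.

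Among the group II receptors, Grm2 encodes mGluR2, a presynaptic autoreceptor best known in the hippocampus at the mossy fibre terminals of dentate granule cells. It read 0.03, 0.55 and -0.76 on orchidectomized 1 to 3, and 0.41, -1.69 and -0.08 on sham 1 to 3. Orchidectomized 3 lay apart from the other orchidectomized arrays, and the groups overlapped. Without the array labelled sham 2 the means were -0.06 ± 0.66 (SD, n = 3) and 0.16 ± 0.35 (SD, n = 2). The difference was -0.23 (SE 0.40) with a 95% interval of -1.21 to 0.76, or 0.431- to 1.70-fold, the widest interval of the 10 probes (limma adjusted p 0.988). It was -1.17 on the shared slide, which sets orchidectomized 3 against sham 1, -0.47 on the first scan day and 0.13 without orchidectomized 3. Over 6 arrays it was 0.39 (limma adjusted p 0.806).

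Grm3 encodes mGluR3, which astrocytes as well as neurons carry. Its probe read -0.39, -0.17 and -0.81 on orchidectomized 1 to 3. Sham 1 and sham 3 had -0.19 and -0.48, and the array labelled sham 2 had -7.02, not well above background. The difference without that array was -0.12 (SE 0.23) with a 95% interval of -0.68 to 0.44 (limma adjusted p 0.988), from means of -0.46 ± 0.32 (SD, n = 3) and -0.34 ± 0.21 (SD, n = 2). The groups overlapped, and the difference was -0.62 on the shared slide and -0.27 on the first scan day. With 6 arrays it was 2.11 (SE 1.90; limma adjusted p 0.775).

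The group III receptors restrain release from the presynaptic active zone, and Grm4 encodes mGluR4. Probe 1 of Grm4 read 0.83, 0.18 and -0.45 on orchidectomized 1 to 3 and 0.43, -2.43 and 0.36 on sham 1 to 3. Probe 2, assigned to the same accession, had 0.51, -0.12 and -0.71 in the first group. In the sham group it had 0.10, -6.31 and 0.06. Both probes put orchidectomized 1 highest and orchidectomized 3 lowest of the 5 arrays, and their differences without the array labelled sham 2 were -0.20 and -0.18 with standard errors of 0.37 and 0.35 (limma adjusted p 0.988 for each). The 95% interval of probe 1 was -1.11 to 0.71. The probes differed by -0.88 and -0.80 on the shared slide. They differed by -0.24 and -0.20 among the arrays of scan day 1. The difference of probe 1 was 0.12 without orchidectomized 3. Over 6 arrays they were 0.74 and 1.95, and the array labelled sham 2 stood at -2.79 from the median of the others at probe 1 and at -6.37 from it at probe 2.

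Grm7 encodes mGluR7, a low-affinity receptor of the active zone. It read -2.43, -2.53 and -2.68 on orchidectomized 1 to 3 and -2.44, -9.58 and -2.63 on sham 1 to 3, with the array labelled sham 2 not well above background. The groups overlapped, and without that array the difference of -0.010 (SE 0.15, 95% interval -0.37 to 0.35, or 0.772- to 1.28-fold; limma adjusted p 0.997) was the smallest of the 10 in size. Arrays of the shared slide gave -0.24, and those of scan day 1 gave -0.11. With 6 arrays the difference was 2.34 (SE 1.99; limma adjusted p 0.775).

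Grm8 encodes mGluR8, a further presynaptic group III receptor. It read -3.50, -3.48 and -3.01 on orchidectomized 1 to 3. The sham arrays had -3.36, -7.72 and -3.59, and the array labelled sham 2 was not well above background. Without it the difference was 0.14 (SE 0.20) with a 95% interval of -0.36 to 0.64 (limma adjusted p 0.988). The difference was 0.34 within the shared slide, 0.023 within scan day 1 and -0.019 without orchidectomized 3, so its sign rests on that array. Over 6 arrays it was 1.56 (limma adjusted p 0.775).

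The 250 bases before the RefSeq start of the members were searched for the androgen response element (AGAACA and TGTTCT with any 3 bases between them) and for its half-site AGAACA alone, on both strands. RefSeq windows of the GRCr8 assembly were matched by symbol for 5 of the 9 genes (Grm5, Grm7, Grm8, Homer1 and Homer3). The windows of the receptor genes with a half-site and that of Homer1, the member with the most spots, are shown here, 5′ to 3′, with half-site matches in capitals.
Grm7 promoter window, GRCr8 chr4:145286476-145286725, plus strand: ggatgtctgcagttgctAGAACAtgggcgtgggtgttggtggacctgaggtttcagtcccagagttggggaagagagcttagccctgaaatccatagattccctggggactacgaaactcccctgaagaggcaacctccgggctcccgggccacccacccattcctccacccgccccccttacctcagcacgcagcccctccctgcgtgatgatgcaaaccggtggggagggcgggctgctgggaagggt
Grm8 promoter window, GRCr8 chr4:57687507-57687756, minus strand: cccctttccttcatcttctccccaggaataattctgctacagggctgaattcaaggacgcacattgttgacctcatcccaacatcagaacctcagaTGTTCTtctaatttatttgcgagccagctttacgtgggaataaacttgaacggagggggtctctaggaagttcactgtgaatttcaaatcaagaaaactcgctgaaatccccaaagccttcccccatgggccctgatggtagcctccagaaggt
Homer1 promoter window, GRCr8 chr2:26278762-26279011, plus strand: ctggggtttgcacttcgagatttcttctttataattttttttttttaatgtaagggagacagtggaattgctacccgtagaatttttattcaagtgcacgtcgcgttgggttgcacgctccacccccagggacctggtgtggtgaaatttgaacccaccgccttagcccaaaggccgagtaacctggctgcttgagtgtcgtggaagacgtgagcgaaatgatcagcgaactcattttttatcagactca

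The full element was found in 0 of the 5 windows and in 0.012% of 33469 windows of the same length. Half-sites were found in the Grm7 window, 233 bases before the start, and in the Grm8 window, 154 bases before it, each 1 match, while 17.5% of all windows hold at least 1. The cyclic AMP response element TGACGTCA, its half-site TGACG and the EGR site GCGTGGGCG, which are known from activity-driven promoters, were found in 0 of the 5 windows and in 1.59%, 18.2% and 0.478% of all windows. Each half-site is part of its full element, so these shares overlap. The Grm7 window had 62% G and C, above 79% of all windows, and Grm8 and Homer1 had 47.2% and 46.4%. Matches describe these letters only, and Grm7 and Grm8 differed by -0.010 and 0.14 between the groups.

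The array labelled sham 2 was the lowest of the 6 at all 10 member probes, where 40.3% of the tested probes lay below the other 5 arrays on it. It was lower by over 1 log2 unit at 9 of 10 member probes and at 24% of tested probes. Relative to the median of the other 5 arrays the receptor probes stood at -9.21 to -1.72 log2 units there, and the Homer probes at -1.81 to -0.64, with 4 of the receptor probes not well above background. In bulk tissue fewer cells of a type and less RNA per cell cannot be told apart.

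Grm3, Grm5, Grm7 and Grm8 were not well above background on that array, so only approximate folds can be given. These set no order among the 4. Grm5 was about 136-fold brighter on the mean of the others, and the folds were 98.0 for Grm3, 31.5 for Grm7 and 17.5 for Grm8. Each fold divides the mean of the other 5 arrays by the dimmest signal that was well above background on that array. The probe's own signal was used where it was brighter, which was so for Grm3. Since Grm3 was not well above background there, that dimmest signal is no detection limit, and the folds are not certain minima.

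The remaining members were still well above background on the array labelled sham 2. Grm2 was 3.30-fold below the median of the others, and Homer2 and Homer3 were 3.49-fold and 3.50-fold below it. Homer1 was 1.55-fold below, with all 10 of its spots between 1.12 and 1.18 against 1.52 for the lowest spot of the other 5 arrays. The probes of Grm4 were 6.91-fold and 82.9-fold below, although on the other 5 arrays they ranked the arrays in the same order. On the array labelled sham 2 the median signal was 7.66 times local background at probe 1 and only 1.51 times at probe 2. The fold of probe 2 is therefore approximate.

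**Figure D3:**
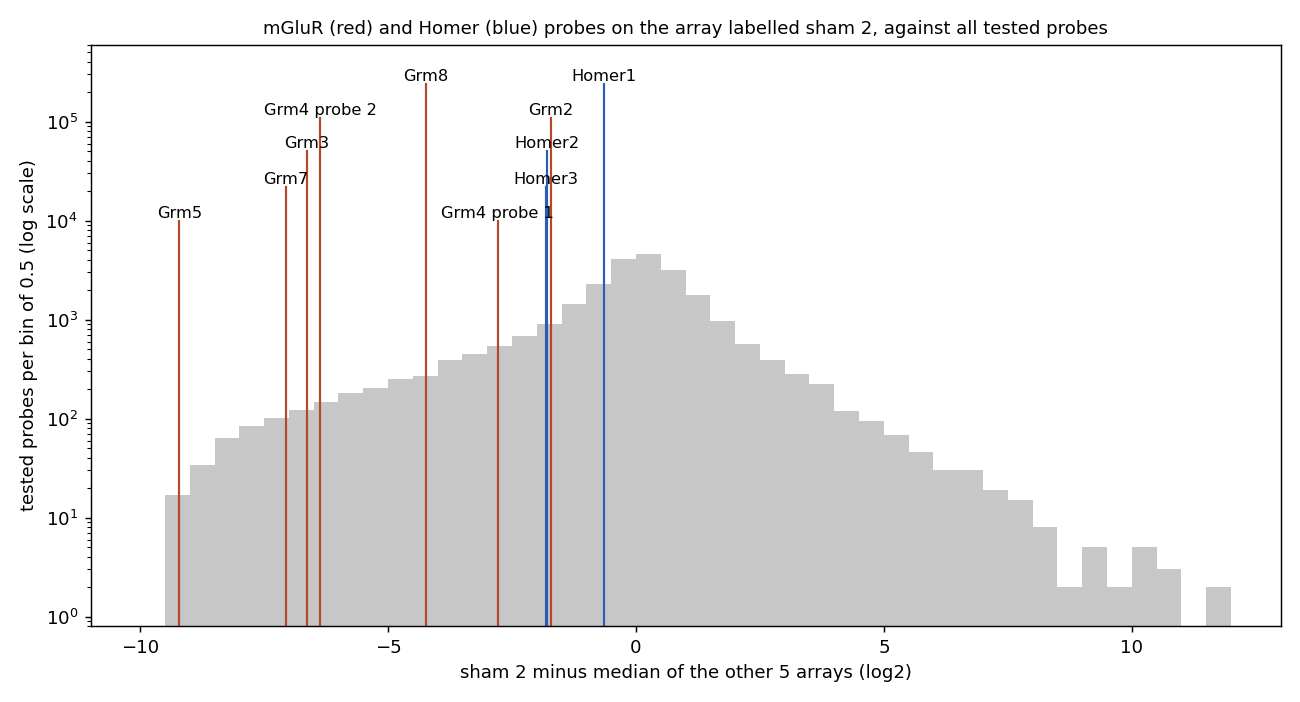
Histogram of sham 2 minus the median of the other 5 arrays in log2 units (x axis, bins of 0.5) over all tested probes (y axis, log scale), with vertical lines for the mGluR (red) and Homer (blue) probes. Homer1 lies nearest the centre of the distribution at -0.64, and the lines of Grm3, Grm5, Grm7 and Grm8 stand at values not well above background on sham 2.

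Other lists of cell type markers also differed on the same array. All 11 astrocyte markers and all 11 myelin markers lay below the other 5 arrays, with median shifts of -4.63 and -4.49, as did 9 of 10 interneuron markers at -5.30 and 9 of 10 microglial markers at -1.32. The glutamatergic list had -5.85. Of 14 choroid plexus markers 13 lay above the other 5 arrays, with a median of 8.80. Of 7 ependymal markers 4 lay above and 2 below those arrays, with a median of 5.05. Of 8 markers of thalamus and habenula 4 lay below and 3 above the other 5 arrays, with a median of -2.24, and of 8 markers of striatum 6 lay below and 2 above, at -2.00. Their part in the member values was not tested. List means over the other 5 arrays ran from 2.76 to 3.13 for astrocytes and from 1.46 to 1.92 for myelin.

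**Figure D4:**
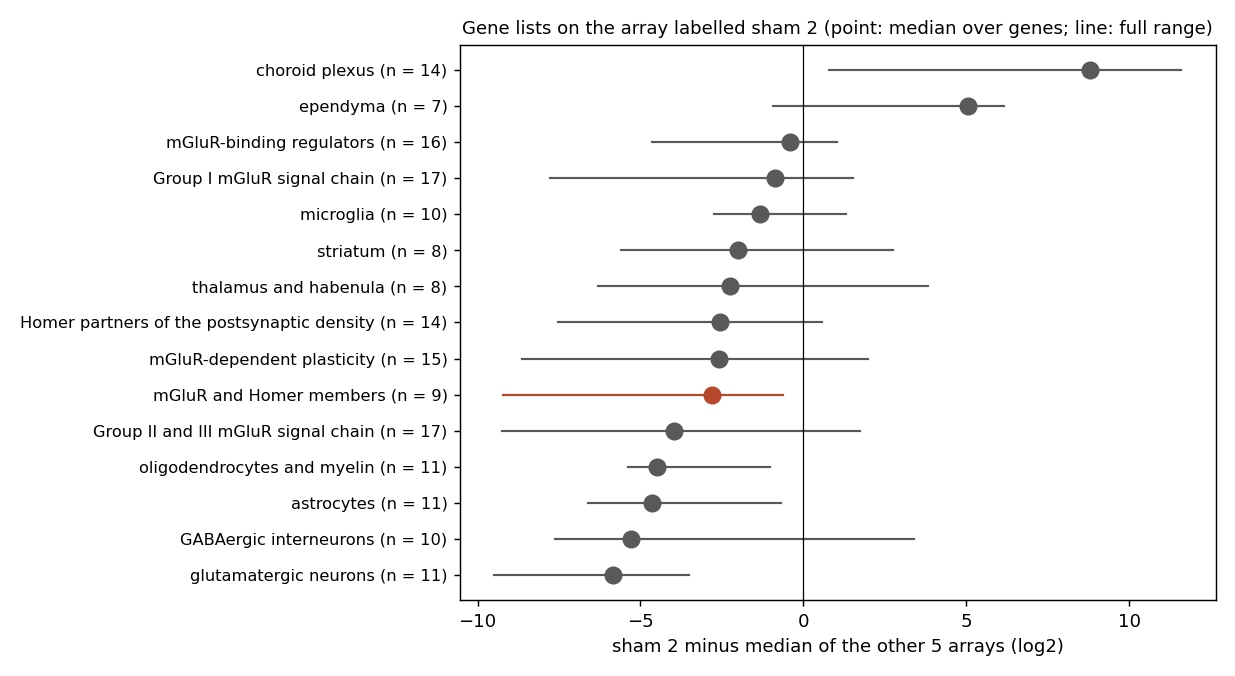
Median (points) and full range (lines) over the genes of each list of sham 2 minus the median of the other 5 arrays, in log2 units (x axis), for the 9 members (red) and for the pathway and marker lists (grey), with the number of genes on the array. The members' median of -2.79 lies above the neuron, astrocyte and myelin lists and far below the choroid plexus list at 8.80.

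Among the other 5 arrays, orchidectomized 3 was at an end of the order at 10 of 10 member probes, lowest at 6 and highest at 4. It was lowest or highest at 65.2% of all tested probes, against 24.1% to 41.1% for each of the other 4 arrays. The probes where it was lowest were those of Grm2, Grm3, Grm4 (both), Grm7 and Homer3, and the probes where it was highest were those of Grm5, Grm8, Homer1 and Homer2. Grm2 lay 0.99 below the median of the other 4 arrays there, a gap exceeded by 3.32% of tested probes. The gaps at the Grm4 probes were -0.84 and -0.79, and that at Grm3 was -0.52. Grm8 and Homer2 lay 0.48 and 0.46 above. On the same array the choroid plexus list had a mean of -4.28 against -3.33 and -3.69 on the other orchidectomized arrays and -3.88 and -4.78 on sham 1 and sham 3, so it was not at an end for that list. The glutamatergic neuron list was lowest on it, at -0.25 against -0.025 to 0.12 on the other 4 arrays, and the interneuron list highest, at 1.63 against 1.30 to 1.55. The astrocyte list was also highest on it, at 3.13. The ependyma, myelin and microglia lists were lowest on it, at -3.655, 1.46 and 0.61. The lists of thalamus and habenula and of striatum were not at an end there. Their part in the member values was not tested.

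Leaving out orchidectomized 3 as well as the array labelled sham 2 gave differences between -0.019 and 0.13 for the 9 genes. Grm2, Grm3, Grm4, Grm7, Grm8 and Homer3 changed sign at this step, and 0 member probes were called.

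**Figure D5:**
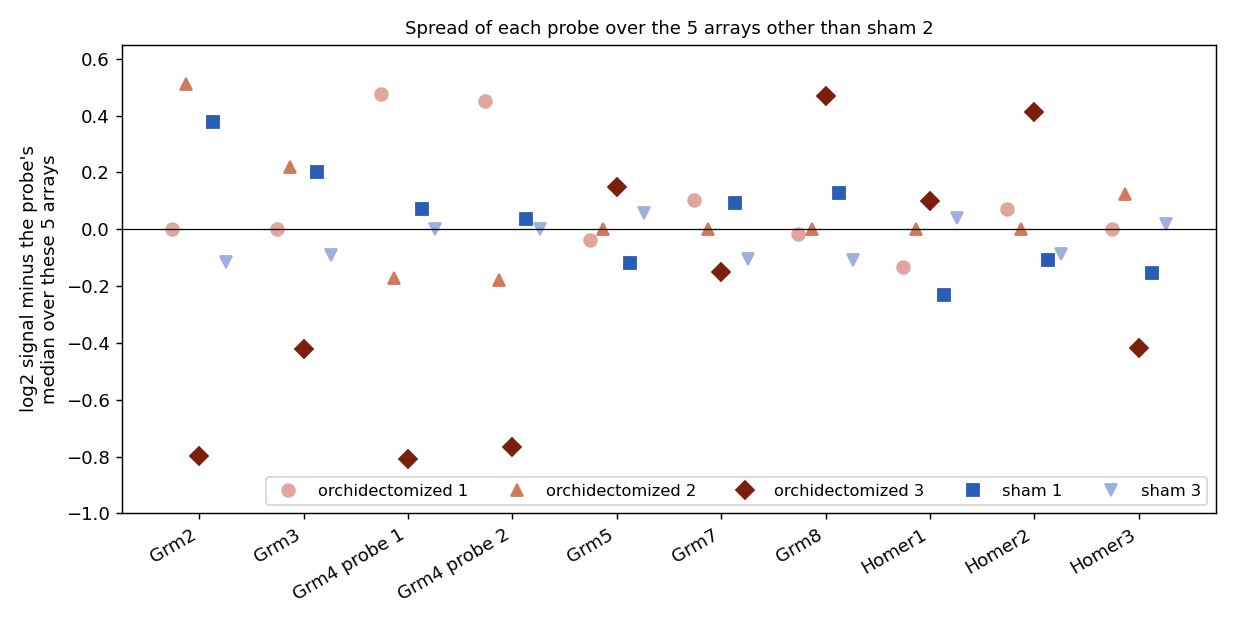
Log2 signal of each mGluR and Homer probe minus its median over the 5 arrays other than sham 2 (y axis), by probe (x axis), with a symbol for each array. Orchidectomized 3 (dark diamonds) is the lowest array at 6 probes, farthest down at Grm2 and Grm4, and the highest at 4, and sham 1 is lowest at Grm5, Homer1 and Homer2.

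Grm5 and Homer1, whose proteins bind each other, had the most similar course over these 5 arrays of the 36 pairs of members. With each gene centred on its mean, they differed by a root mean square of 0.0434 log2 units. Over 6 arrays the same measure was 3.22, the largest of the 36 pairs, with Grm5 not well above background on the array labelled sham 2. Both were lowest on sham 1 and highest on orchidectomized 3. Of 12629 other genes 37 (0.293%) lay closer to Homer1 than Grm5 did, and 158 (1.25%) lay closer to Grm5 than Homer1 did. This pair was picked out with its values in view. Grm5 differed from Homer2 by 0.136 and from Homer3 by 0.244 over the 5 arrays, while Grm3 and Homer3 differed by 0.157. The closeness of Grm5 to Homer1 thus did not extend equally to the other Homer genes.

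Over all 6 arrays, where the array labelled sham 2 sets the shape, the closest genes to each member by the same measure were given for a fixed 3 per gene. The potassium channel gene Kcna4 was closest to Grm5 at 0.0318, before Fibcd1 and Bhlhe22. Cadm2, Trpc5 and Pak3 were closest to Grm3 (from 0.0840), Slc12a5, Mdga2 and C1ql2 to Grm7 (from 0.0718) and Ncam1, Pnck and Nsg1 to Grm8 (from 0.0522). For Grm2 they were Ceacam4, Steap3 and Parvg (from 0.119) and for Grm4 Dusp5, Exoc6b and Ubald1 (from 0.175). Lrrc45, Skp2 and Asap1 were closest to Homer1 (from 0.0411), Bend5, Ctss and Hycc2 to Homer2 (from 0.0607) and Afmid, Lin28a and Pcgf6 to Homer3 (from 0.0548). The matches of Grm3, Grm5, Grm7 and Grm8 include values not well above background on the array labelled sham 2. With 12629 genes and 6 arrays such matches are a description only.

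The wider pathway was read from 5 lists of genes without the array labelled sham 2. Of 17 genes of the group I signal chain (among them Gq proteins, phospholipase C beta and inositol trisphosphate receptors), 0 were called higher and 0 lower, with 5 positive and 12 negative signs and a median of -0.062. The inositol trisphosphate receptor genes Itpr1 and Itpr3 differed by 0.22 and 0.21, and the channel genes Ryr2 and Trpc4 by -0.19 and -0.18 (limma adjusted p 0.988 for each). Of 14 Homer partners in the postsynaptic density 0 were called, with a median of -0.050. The scaffold gene Shank2 differed by -0.60 (SE 0.28; limma adjusted p 0.988), Dlgap4, Sipa1l1 and Shank3 by -0.14, -0.17 and -0.17.

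Of 17 genes of the group II and III signal chain (Gi/o proteins, adenylyl cyclases, RGS proteins and G protein-gated potassium channels) 0 were called, with a median of -0.047. The channel genes Kcnj9 and Kcnj6 differed by 0.35 and -0.37, the G protein genes Gnao1 and Gnaz by -0.24 and -0.21. Among 16 genes of proteins that bind or regulate the receptors 0 were called, with a median of -0.0065. The receptor kinase gene Grk3 differed by 0.35, the norbin gene Ncdn by 0.42 and the scaffold gene Tamalin by -0.20. Of 15 genes of receptor-dependent plasticity 0 were called, with a median of 0.077. The activity-regulated gene Arc differed by -0.63 (SE 0.44), Map1b and Fmr1 by 0.22 each and Camk2b by -0.39 (limma adjusted p 0.988 for each).

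Over 6 arrays the same lists had medians of 0.30, 0.87, 1.44, 0.25 and 0.77 in that order, each again with 0 genes called. Arc differed by 2.00 and Kcnj6 by 2.77 over 6 arrays, the reverse of their signs without the array labelled sham 2 (limma adjusted p 0.775 for each), and Kcnj6 was not well above background on it. On the array labelled sham 2, 13 of 17, 13 of 14, 15 of 17, 9 of 16 and 9 of 15 of their genes lay below the other 5 arrays, beside 40.3% of all tested probes. Dagla, which encodes the lipase that turns the group I signal into an endocannabinoid, stood at -7.78 from the median of the others there. Itpr1 stood at 0.14 and Plcb4 at 1.54, so the chain of Grm5 was not uniformly low on that array. These 3 genes were chosen after their values were seen.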

How the data were processed

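Hippocampal RNA (200 ng per sample, amplified and Cy3-labelled, per the labels' protocols) was read on 6 1-colour Agilent arrays. The deposited intensity values are the processed signals of Agilent Feature Extraction 10.5.1.1, per the file headers. Statistics of spatial detrending and background subtraction stand in those headers. In the table of values that the authors deposited, log2 values lie within 0.01 of log2 processed signal plus 1 constant per array at over 99% of probes; the scale is thus log2, while the origin of the constants, the centring, stays unknown. The constants ran from -0.32 to 0.72. Orchidectomized 1 to 3 had column medians of 8.02, 7.94 and 7.91, and sham 1 to 3 of 7.77, 7.62 and 8.04. The array design names another genome build than the RefSeq tables, so no probe coordinates are given.

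Of 44254 spots, 1377 control spots and outlier-flagged spots were left out. Spots of a probe were averaged on the log2 scale, and each array's 75th percentile was subtracted. RefSeq accessions, matched without versions to GRCr8 tables, named 18004 of 30367 probes. A gene was represented by its brightest probe. Probes well above background (in at least 50% of spots) on all arrays of at least 1 group, with a value on every array, entered a two-sided limma test (version 3.58.1, lmFit then eBayes, R version 4.3.3). P-values were adjusted over all tested probes by Benjamini and Hochberg's method. The number of arrays limits the precision. The labels call the samples biological replicates, and whether RNA of several rats was pooled is not given in the sources used here.

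The arrays lay on 4 slides scanned on 2 days. Orchidectomized 3 and sham 1 shared slide 2, and day 1 held the orchidectomized arrays and sham 1. Named genes were the 9 members with all probes, at most 4 genes per pathway list with the smallest unadjusted p without the array labelled sham 2, and 3 genes per member by likeness over 6 arrays; a few are not reported here. Dagla and Plcb4, and Slc17a7 as a marker, were named outside this rule after their values were seen. Members, lists and tests were chosen with earlier results of these data known. Alternatives were normexp (offset 50, on median signals), quantile normalization, the authors' values, no or a stricter brightness filter, trended robust variances, array weights, blocks for slide, scan day and replicate number, and leaving out each array. The fit was tested on simulated data.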

Additional observations from a re-analysis of the deposited data

How the results depend on the processing

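Without the array labelled sham 2, 0 member probes were called in 15 of 15 alternatives, and over 6 arrays in 16 of 16. Counts over all probes moved from 0 over 6 arrays to 1 with quantile normalization and 13 with array weights. Without the array labelled sham 2 they moved from 0 to 2 with quantile normalization, 18 with the authors' deposited values and 10 with scan day as a block, and ran from 0 to 251 when a further array was left out, with 22 without sham 1 and 251 without sham 3, where the lone sham array left is assumed to vary like the others. The median over the member genes without that array became -0.24 when slide was a block, a setting that rests on orchidectomized 3 and sham 1.

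Over 6 arrays the signs turned with array weights for Grm2 (-0.12), Grm3 (-0.062) and Grm8 (-0.062). Under the slide block they turned for Grm2 (-1.17), Grm3 (-0.62), Grm4 (-0.88), Grm7 (-0.24) and Homer3 (-0.26), and with scan day as a block for Grm2 (-0.47), Grm3 (-0.27), Grm4 (-0.24) and Grm7 (-0.11). Neither block lets the array labelled sham 2 enter the difference. Leaving out each array in turn gave -0.23 to 0.82 for Grm2, -0.12 to 3.30 for Grm3, -0.20 to 1.23 for Grm4, -0.010 to 3.56 for Grm7 and -0.030 to 0.88 for Homer3, the lowest value in each case without sham replicate 2.

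Without the array labelled sham 2 the signs turned for Grm7 with normexp (0.070), the authors' values (0.043) and array weights (0.053). For Homer3 they turned with normexp (0.032), the authors' values (0.024), array weights (0.098) and scan day as a block (0.057), and with array weights for Grm2 (0.038), Grm3 (0.012) and Grm4 (0.11). The median of all tested probes was 0.083 with normexp. Leaving out a further array gave -0.53 to 0.13 for Grm2, -0.27 to 0.054 for Grm3, -0.53 to 0.12 for Grm4, -0.021 to 0.16 for Grm5, -0.11 to 0.088 for Grm7, -0.019 to 0.26 for Grm8, -0.051 to 0.22 for Homer1 and -0.14 to 0.13 for Homer3. Homer2 kept a positive sign in all 15 alternatives (0.13 to 0.52). The cause of these turns was not tested.

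Same-numbered arrays had deviations from their group means that correlated at 0.027, -0.023 and -0.018. The array labelled sham 2 enters the sham mean, so these values cannot show whether the replicate numbers mark pairs. With replicate number as a block 0 probes were called in both comparisons, and the member median was 0.83 with 6 arrays and -0.018 with 5; it changed no other call. Signal over background limits Grm3, Grm5, Grm7 and Grm8 on the array labelled sham 2 to an approximate fold. The stricter filter over 6 arrays gave no value for these 4 genes.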
